A study of Homo sapiens with 9 samples.

Results

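The 39 genes described here belong to the amino acid response that runs through the transcription factor ATF4. They were chosen by name, as ATF4, its partners and known targets, the serine synthesis enzymes, and the cytosolic aminoacyl-tRNA synthetases with the tRNA exporter XPOT, and all 39 were found among the 23727 genes of the count table. RNA was sequenced from LN229, an established human glioblastoma cell line, kept in DMEM with glucose, glutamine and fetal bovine serum. There were 3 groups of 3 libraries: untreated cells at 0 h, and cells given 500 uM Na-formate (sodium formate, a carbon donor of folate metabolism) for 8 h or for 24 h. All groups were the same line in the same medium, and the samples analysed here include no untreated group at 8 h or 24 h, so that the action of formate and that of time in culture cannot be told apart. The titles number the libraries 1 to 3 in every group, but nothing says whether they came from separate cultures, so p-values measure the spread between these libraries, which may be technical.

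When amino acids run short, when unfolded proteins collect in the endoplasmic reticulum or when haem is lacking, kinases phosphorylate the translation factor eIF2. Bulk protein synthesis then slows, while ATF4 mRNA is translated more efficiently because of small upstream reading frames. ATF4 pairs with C/EBP proteins and switches on genes for amino acid synthesis, amino acid uptake and tRNA charging, together with genes that later shut the response off. ATF4 is therefore set largely at the level of its protein, which was not measured here. Serine made by the pathway of PHGDH, PSAT1 and PSPH is a main source of the carbon units that folate enzymes carry and that formate can also supply.

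The libraries held 22222298 to 25848242 counts each, with scaling factors (TMM) of 0.920 to 1.06, and 3 counts, taken as the floor of detection, came to 0.116 to 0.141 CPM, the unit of counts scaled to a common library size that is used throughout. A floor of this kind covers counting error only. The label was checked against 9 markers of the line, of which 8 were found in the table and 6 reached 1 CPM in untreated cells. VIM, CD44 and NES, genes of mesenchymal and neural progenitor-like tumour cells, were at 4903 ± 1197, 999 ± 109.8 and 948 ± 53.1 CPM in untreated cells (mean ± SD, n = 3), while GFAP, the astrocyte filament, was near the floor at 0.233 ± 0.0842 CPM and SOX9 was at 0.759 ± 0.290 CPM. The sum of the line's markers was 7115 to 9887 CPM at 0 h, 7276 to 8041 CPM at 8 h and 6051 to 6912 CPM at 24 h, so that the 24 h libraries lay below all earlier ones. The summed level of 3 immune markers (PTPRC, CD14 and CD68) was 0.270 to 0.619 CPM in untreated cells and 0.415 to 0.508 CPM at 24 h. Markers of other cells also differed in part at 24 h: the sum of KRT8, KRT18, EPCAM and CDH1 went from 139.8 to 203 CPM at 0 h to 109 to 126 CPM at 24 h, with EPCAM and CDH1 at or near 0, the sum of the neuronal markers SYT1 and SNAP25 from 38.9 to 54.3 CPM to 54.3 to 59.3 CPM, and that of PECAM1 and VWF from 0.308 to 0.613 CPM to 1.04 to 1.70 CPM. Their part in the results below was not tested. In bulk RNA, fewer cells of a kind and less RNA per cell cannot be told apart.

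ATF4 and C/EBP proteins bind a composite DNA element, and its letters are shown first because they mark which members carry it beside the transcription start. The motif searched was TGATGNAA on both strands (TTNCATCA on the other), in windows from 250 bases before to 50 bases after each start, with the windows and their coordinates taken from RefSeq on GRCh38.p14. Of the 33 members with a window, 14 (42.4%) held a match, beside 2.82% of the 11151 tested genes with a window and 4.46% of the 27305 genes with a window in the whole RefSeq table. Counted by window, 26.4% of the 53 windows of members held a match, beside 3.62% of all 35116 windows. Genes are often counted as ATF4 targets because they carry this element, so that the share describes the list and is not evidence from these libraries. The matches of the tRNA synthetase genes, of ASNS (asparagine synthetase, where the element is best known) and of the 2 members with a match that also changed in some fits, CEBPG and SLC1A4, are printed 5' to 3' on the gene's own strand, with the motif in capitals.
ASNS: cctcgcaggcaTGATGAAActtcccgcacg
AARS1: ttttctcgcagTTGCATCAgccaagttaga
CARS1: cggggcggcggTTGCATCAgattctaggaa
GARS1: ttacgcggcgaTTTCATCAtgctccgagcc
MARS1: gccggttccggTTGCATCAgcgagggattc
NARS1: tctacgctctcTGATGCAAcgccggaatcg
TARS1: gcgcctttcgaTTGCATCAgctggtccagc
CEBPG: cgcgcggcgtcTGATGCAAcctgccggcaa
SLC1A4: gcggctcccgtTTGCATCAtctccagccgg
The ASNS stretch lies at chr7:97872458-97872487, minus strand, and its motif begins 68 bases before the start of transcription. Near the start, on the upstream side, lie the motifs of CARS1 (chr11:3057407-3057436, minus strand, 2 bases before it), MARS1 (chr12:57488053-57488082, plus strand, 4 bases), SLC1A4 (chr2:64989381-64989410, plus strand, 7 bases), GARS1 (chr7:30594834-30594863, plus strand, 33 bases) and CEBPG (chr19:33374060-33374089, plus strand, 42 bases). Those of TARS1 (chr5:33440956-33440985, plus strand) and NARS1 (chr18:57621804-57621833, minus strand) begin on bases 3 and 15 of the transcript, and that of AARS1 (chr16:70289675-70289704, minus strand) 187 bases before the start. In CARS1, MARS1, TARS1, AARS1 and SLC1A4 the other strand reads TGATGCAA, the same letters that NARS1 and CEBPG carry on their own strand. ASNS carries TGATGAAA on its own strand, and GARS1 the same letters on the other. By role, 6 of 10 synthetase or export genes with a window held a match, 4 of 7 amino acid carriers, 2 of 6 regulators, 1 of 4 effectors, 1 of 4 synthesis genes and 0 of the 2 secreted factors. Among 10 other genes of cytosolic tRNA charging with a window, 1 held a match.

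After 8 h of formate, 0 of the 38 tested members differed from untreated cells (edgeR's quasi-likelihood test, adjusted over 15273 genes), and 0 of them had an unadjusted p under 0.05. Their log2 fold changes ran from -0.21 to 0.24, from DDIT3 to ASNS, with a median of -0.027. Over all tested genes the number called was 0 as well (0.0%), and 79 had an unadjusted p under 0.05. DESeq2 also called 0 genes, with 37 at an unadjusted p under 0.05, and edgeR with the replicate number as a block called 0, with 155. ATF4 itself was at 400.0 ± 91.9 CPM in untreated cells and 368 ± 32.1 CPM after 8 h (mean ± SD, n = 3), a log2 fold change of -0.12 ± 0.17 (SE). NUPR1, a stress-induced chromatin protein, had 2 to 5 counts in each library and was not tested.

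After 24 h, 4 of the 38 tested members differed from untreated cells, beside 4.25% of all tested genes. ALDH18A1 (proline synthesis) and GDF15 (a secreted stress hormone) were higher, and ATF5 (a transcription factor) and STC2 (a secreted glycoprotein) were lower. The 34 other tested members, including ATF4, the serine synthesis enzymes and the synthetases, did not pass the test in that fit. The median log2 fold change was -0.073 over the members and 0.0071 over all tested genes. Same-numbered libraries deviated together between 0 h and 24 h (correlations of 0.164 to 0.367), though 0 h replicate 3 and 24 h replicate 2 did so too (0.270). With the number as a block 12 members passed, beside 24.1% of all tested genes. Of these, 6 were higher (ALDH18A1, GDF15, DDIT4, CEBPB, SLC1A4 and WARS1) and 6 lower (STC2, ATF5, DDIT3, ATF4, CEBPG and EIF4EBP1). The 24 h libraries lay wholly above or wholly below the untreated ones in 12 of the 38 members (31.6%), beside 30.3% of all tested genes. Within replicate numbers, 9 members were higher at 24 h in all 3 and 16 lower in all 3, which together is 65.8% of the members and 54.0% of all tested genes. Against 8 h rather than 0 h, ALDH18A1, GDF15, ATF5 and STC2 again passed and no other member did, beside 4.56% of all tested genes. Both comparisons use the same 24 h libraries.

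**Figure D1:**
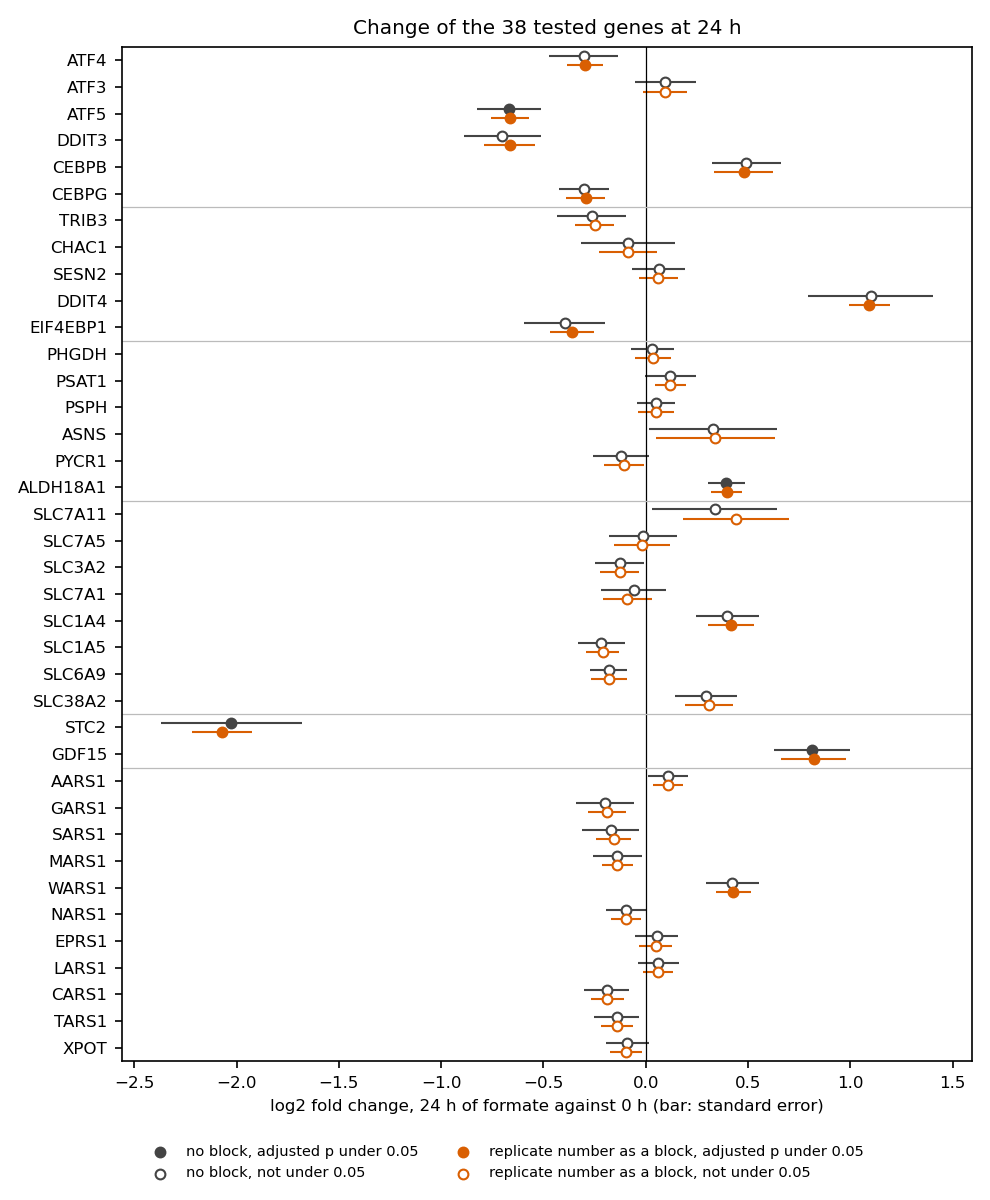
Log2 fold change of the 38 tested members at 24 h against 0 h (x axis), with standard errors as bars, without a block (grey) and with the replicate number as a block (orange); filled points have an adjusted p under 0.05 and lines separate the 6 role groups. STC2 lies at -2.03 and DDIT4 at 1.10 without the block, and the synthetases other than WARS1 between -0.20 and 0.11.

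Of the 6 tested regulators at the head of the response, ATF5 passed as lower without the block. With the block, ATF4, ATF5, DDIT3 and CEBPG fell and CEBPB rose. Over all tested genes 4.25% passed without the block and 24.1% with it. ATF4 was at 506, 355 and 339 CPM in replicates 1, 2 and 3 of the untreated cells, at 404, 354 and 345 CPM after 8 h and at 389, 302 and 281 CPM after 24 h. Replicate 1 was the highest of its group at each time, and the 24 h and untreated libraries overlapped. Its log2 fold change at 24 h was -0.30 ± 0.17 (SE, adjusted p = 0.269), and -0.30 ± 0.087 with the block (adjusted p = 0.0313), where each number showed a fall, by 0.38, 0.24 and 0.27 on the log2 scale. The blocked call held in 3 of the 9 fits that left out 1 library, with adjusted p from 0.0187 to 0.092. ATF4 (ENSG00000128272) lies at chr22:39519695-39522685, plus strand, and 4 annotated pseudogenes carry its name, so that reads could be split among copies. ATF5, a close relative that is controlled by upstream reading frames in the same way, passed in both fits. ATF5 was at 58.1, 40.4 and 42.6 CPM in replicates 1, 2 and 3 of the untreated cells, at 50.3, 43.4 and 44.9 CPM after 8 h and at 35.0, 28.4 and 25.3 CPM after 24 h. All 3 libraries at 24 h were below all 6 earlier ones, and the log2 fold change was -0.67 ± 0.16 (SE, adjusted p = 0.0393; with the block -0.66 ± 0.094, adjusted p = 0.000802). ATF5 (ENSG00000169136, chr19:49928702-49933935, plus strand) shares 21.2% of its exon bases with IL4I1 and NUP62 on the opposite strand, and since the strand setting of the counting is not given, reads of the partners cannot be told apart.

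DDIT3 (CHOP) is a C/EBP family protein tied to cell death in prolonged stress, and it is one of the most used markers of an active response. For this gene, the 3 libraries held 53.2, 30.8 and 33.6 CPM of DDIT3 before formate, 39.5, 29.7 and 32.6 CPM after 8 h and 25.0, 24.3 and 23.0 CPM after 24 h. The 24 h values lay below every untreated and every 8 h one and close to each other, and replicate 1 was the highest before formate. The log2 fold change was -0.70 ± 0.19 (SE) and did not pass (adjusted p = 0.0566); with the block it was -0.66 ± 0.13 (adjusted p = 0.00369). Exons of MARS1 and MBD6 on the opposite strand overlap 31.6% of those of DDIT3. Another annotated gene, on the same strand, overlaps 8.03% of the DDIT3 exon bases. CEBPB and CEBPG, both dimer partners of ATF4, went opposite ways: with the block CEBPB rose, with a log2 difference of 0.48 ± 0.14 (SE, adjusted p = 0.0335), and CEBPG fell, with -0.29 ± 0.096 (adjusted p = 0.0463). Without the block neither passed (adjusted p = 0.108 and 0.151), and CEBPB stood at 48.9 ± 3.35 CPM at 0 h and 68.8 ± 14.7 CPM at 24 h, CEBPG at 48.3 ± 8.00 and 39.1 ± 2.06 CPM (mean ± SD, n = 3). The blocked calls held in 4 of 9 fits without 1 library for CEBPB and in 2 of 9 for CEBPG. ATF3, an early stress factor that ATF4 induces, was at 11.7 ± 1.15 CPM before formate and 12.5 ± 1.62 CPM at 24 h and passed in neither fit.

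**Figure D2:**
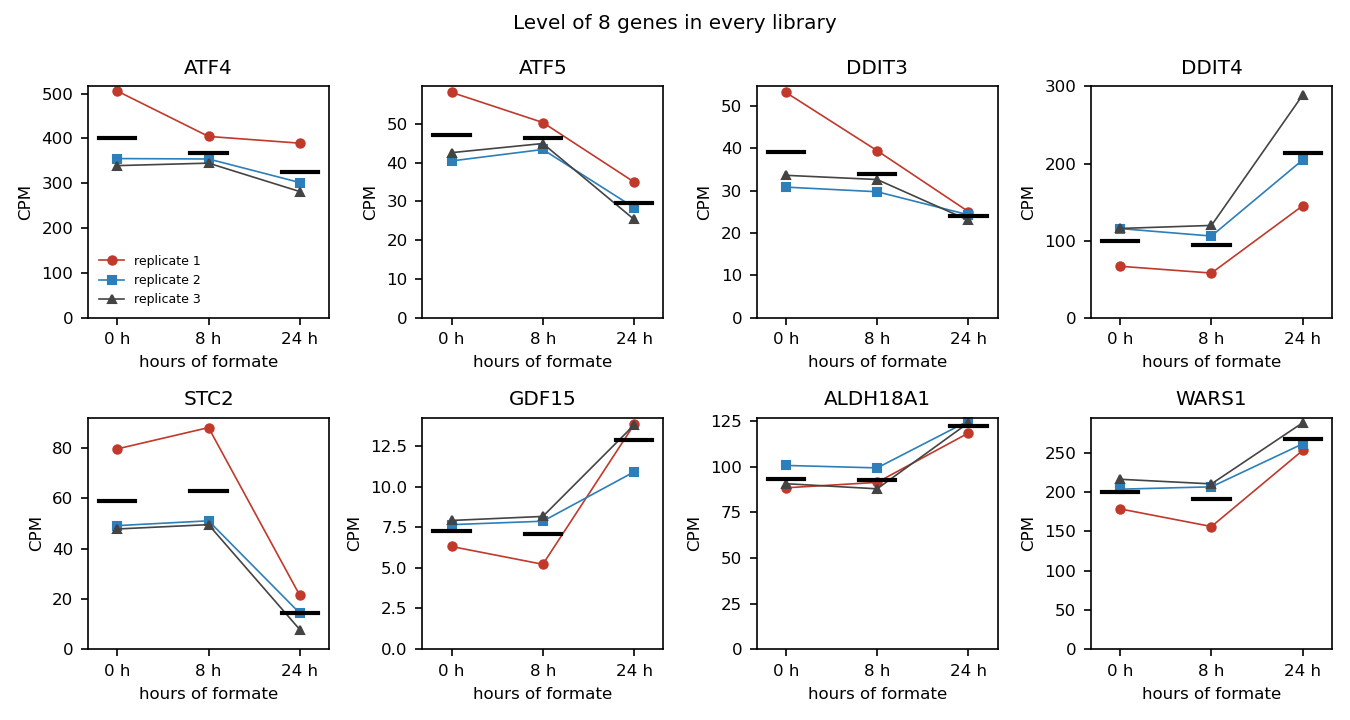
Level in CPM (y axis, from 0) of 8 members at 0, 8 and 24 h of formate (x axis); lines join libraries with the same replicate number and black bars are means of 3. In STC2, ATF5 and DDIT3 all 24 h libraries lie below the earlier ones, and in DDIT4, GDF15, ALDH18A1 and WARS1 all lie above them. Replicate 1 is offset from 2 and 3 in several genes.

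Of the 5 feedback and stress effectors, 0 passed without the block and 2 with it, DDIT4 as higher and EIF4EBP1 as lower. Among all tested genes the shares were 4.25% without the block and 24.1% with it. TRIB3 is a pseudokinase that restrains ATF4, CHAC1 degrades glutathione, SESN2 and DDIT4 dampen mTORC1, and EIF4EBP1 holds back cap-dependent translation. DDIT4 (REDD1), which is also induced by low oxygen, glucocorticoids and energy stress, had the highest log2 fold change of the members. DDIT4 was at 66.6, 116 and 116 CPM in replicates 1, 2 and 3 of the untreated cells, at 57.8, 106 and 119.6 CPM after 8 h and at 145, 205 and 289 CPM after 24 h. The 24 h values exceeded all earlier ones, although replicate 1 was the lowest at each time. Its log2 fold change of 1.10 ± 0.31 (SE) missed the threshold without the block (adjusted p = 0.0619), and with the block it was 1.09 ± 0.10 (adjusted p = 0.00011). DDIT4-AS1, an antisense gene, overlaps 41.2% of the exon bases of DDIT4, and the 2 cannot be told apart without the strand setting. In EIF4EBP1, replicate 1 was instead the highest at each time: the 3 libraries held 119, 71.9 and 66.2 CPM of EIF4EBP1 before formate, 87.2, 69.5 and 67.7 CPM after 8 h and 73.9, 58.9 and 62.0 CPM after 24 h. Replicate 1 at 24 h was above replicates 2 and 3 of the untreated cells, and the log2 difference of -0.36 ± 0.11 passed with the block (adjusted p = 0.0338, 4 of 9 fits without 1 library) and not without it (-0.40 ± 0.20, adjusted p = 0.226). TRIB3 stood at 55.3, 40.0 and 34.8 CPM at 0 h, 45.1, 41.5 and 36.3 CPM at 8 h and 42.0, 33.8 and 32.6 CPM at 24 h, with a log2 fold change at 24 h of -0.26 ± 0.17 (SE) that passed in neither fit (adjusted p = 0.328, and 0.0746 with the block). CHAC1 and SESN2, at 4.76 ± 1.07 and 17.2 ± 1.88 CPM before formate, had log2 fold changes of -0.087 ± 0.23 and 0.064 ± 0.13.

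The serine pathway did not pass the test at either time. PHGDH, which commits glucose carbon to serine, was at 226 ± 27.7 CPM at 0 h, 215 ± 8.00 CPM at 8 h and 231 ± 11.5 CPM at 24 h (mean ± SD, n = 3). PSAT1, the transaminase of the second step, overlapped between groups. The 3 libraries held 112, 93.3 and 87.5 CPM of PSAT1 before formate, 104, 96.8 and 86.2 CPM after 8 h and 118, 107 and 93.3 CPM after 24 h. PSPH, the phosphatase that releases serine, was at 36.8 ± 2.01 CPM before formate and 38.1 ± 2.39 CPM at 24 h. The 3 log2 fold changes at 24 h were 0.033 ± 0.11, 0.12 ± 0.12 and 0.049 ± 0.093 (SE), with adjusted p of 0.866, 0.55 and 0.759, and 0.803, 0.26 and 0.715 with the block. ASNS, which makes asparagine and is usually among the strongest ATF4 targets, was barely present in this line, at 0.990, 1.46 and 1.95 CPM in untreated cells, 1.95, 1.18 and 2.08 CPM after 8 h and 1.48, 2.37 and 1.70 CPM after 24 h. These are 21 to 55 counts in each library, and at this depth its log2 fold change of 0.33 ± 0.31 at 24 h (SE) was close to its error. Another annotated gene on the same strand overlaps 44.6% of the ASNS exon bases and 4 pseudogenes carry its name, so the count is uncertain.

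ALDH18A1, the enzyme that turns glutamate into the precursor of proline, was the 1 gene of the 6 in amino acid synthesis that passed, in both fits. The shares of all tested genes were 4.25% without the block and 24.1% with it. ALDH18A1 was at 88.4, 101 and 90.7 CPM in replicates 1, 2 and 3 of the untreated cells, at 91.4, 99.4 and 87.9 CPM after 8 h and at 119, 125 and 124 CPM after 24 h. All 24 h libraries exceeded all earlier ones and the spread within groups was small, with means of 93.3 ± 6.54 and 123 ± 3.57 CPM (± SD, n = 3) at 0 h and 24 h. Its log2 fold change was 0.39 ± 0.091 (SE, adjusted p = 0.0376; with the block 0.40 ± 0.076, adjusted p = 0.00406). The gene (ENSG00000059573) lies at chr10:95605929-95656706, minus strand, and no exon of another annotated gene overlaps it. PYCR1, which completes proline synthesis in mitochondria, was at 91.3 ± 17.8 CPM before formate and 83.9 ± 5.15 CPM at 24 h and did not pass (log2 fold change -0.12 ± 0.14, adjusted p = 0.587). The difference between the 2 proline genes was not tested.

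Among the 8 amino acid carriers, 0 passed without the block and 1, SLC1A4, with it, beside 4.25% and 24.1% of all tested genes. SLC1A4 (ASCT1) exchanges serine, alanine and cysteine across the plasma membrane. SLC1A4 was at 372, 519 and 411 CPM in replicates 1, 2 and 3 of the untreated cells, at 364, 505 and 407 CPM after 8 h and at 619.9, 569 and 527 CPM after 24 h. The 24 h libraries were all above the untreated ones, while replicate 2 at 0 h came within a narrow margin of the lowest of them. The log2 fold change was 0.40 ± 0.15 (SE, adjusted p = 0.14), and 0.42 ± 0.11 with the block (adjusted p = 0.0221), which held in 7 of 9 fits without 1 library. SLC1A5 (ASCT2), the related glutamine carrier, lay on the other side of 0: the 3 libraries held 266, 217 and 209 CPM of SLC1A5 before formate, 246, 225 and 211 CPM after 8 h and 207, 193 and 195 CPM after 24 h. Its libraries at 24 h were below all untreated ones, but the log2 fold change of -0.22 ± 0.11 (SE) did not pass (adjusted p = 0.241, and 0.0792 with the block). SLC38A2 stood at 343, 494 and 513 CPM at 0 h, 435, 491 and 497 CPM at 8 h and 555, 597 and 502 CPM at 24 h; this sodium-coupled carrier, which adapts to amino acid supply, did not pass either (0.29 ± 0.15, adjusted p = 0.234, and 0.0741 with the block). SLC7A5 (LAT1), the leucine carrier that works as a heterodimer with SLC3A2, had large and overlapping values in each group: the 3 libraries held 1303, 1610.2 and 1361 CPM of SLC7A5 before formate, 1415, 1683 and 1429 CPM after 8 h and 1769.6, 1305 and 1163 CPM after 24 h. Its log2 ratios of 24 h over 0 h were 0.44, -0.30 and -0.23 for replicate numbers 1, 2 and 3. SLC7A11, the cystine carrier, differed even more between numbers, with log2 ratios of 1.56, 0.20 and -0.41 for 24 h over 0 h, and was at 48.9, 122 and 134 CPM before formate. SLC7A1 (arginine), SLC6A9 (glycine) and SLC3A2 had log2 fold changes at 24 h of -0.060 ± 0.16, -0.18 ± 0.091 and -0.13 ± 0.12 (SE).

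The 2 secreted members moved in opposite directions. STC2, stanniocalcin 2, is a glycoprotein of the secretory pathway that restrains the IGF-releasing protease PAPP-A and is induced by ATF4 in stressed cells. STC2 was at 79.7, 49.2 and 47.8 CPM in replicates 1, 2 and 3 of the untreated cells, at 88.2, 51.1 and 49.6 CPM after 8 h and at 21.4, 14.3 and 7.75 CPM after 24 h. The highest 24 h library was below the lowest of the 6 earlier ones, and replicate 1 was the highest at each time. The log2 fold change was -2.03 ± 0.35 (SE, adjusted p = 0.0199), the largest fall of the members, and -2.07 ± 0.15 with the block (adjusted p = 3.91e-05). Against 8 h it was -2.12 ± 0.35 (adjusted p = 0.0183), and at 8 h against 0 h 0.096 ± 0.33. The gene (ENSG00000113739) lies at chr5:173314713-173329503, minus strand, with no exon of another annotated gene over it. GDF15 is a stress hormone of the TGF-beta family that ATF4 and CHOP as well as p53 can induce. GDF15 was at 6.32, 7.66 and 7.92 CPM in replicates 1, 2 and 3 of the untreated cells, at 5.22, 7.87 and 8.17 CPM after 8 h and at 13.8, 10.9 and 13.8 CPM after 24 h. The 3 libraries at 24 h were above all earlier ones, although the gene stayed low, and the log2 fold change was 0.81 ± 0.18 (SE, adjusted p = 0.0356; with the block 0.82 ± 0.16, adjusted p = 0.00421). Against 8 h it was 0.86 ± 0.19 (adjusted p = 0.0319). GDF15 (ENSG00000130513) lies at chr19:18374731-18389176, plus strand.

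The 11 genes of tRNA charging and export had 0 members that passed without the block, beside 4.25% of all tested genes. Their log2 fold changes at 24 h ran from -0.20 (GARS1) to 0.42 (WARS1), with a median of -0.096. WARS1, which charges tryptophan and is also induced by interferon, was the 1 gene of the group that passed with the block. With the block, 24.1% of all tested genes passed. WARS1 was at 179, 204 and 217 CPM in replicates 1, 2 and 3 of the untreated cells, at 156, 207 and 211 CPM after 8 h and at 253, 262 and 289 CPM after 24 h. All 24 h libraries were above all earlier ones, and replicate 1 was the lowest of each group. Its log2 fold change was 0.42 ± 0.13 (SE, adjusted p = 0.0823), and 0.43 ± 0.085 with the block (adjusted p = 0.00499). Opposite-strand exons cover 10.6% of its own. GARS1 (glycine) leaned the other way without passing: the 3 libraries held 353, 254 and 254 CPM of GARS1 before formate, 283, 257 and 256 CPM after 8 h and 274, 255 and 222 CPM after 24 h. CARS1 stood at 105, 87.0 and 84.4 CPM at 0 h, 97.2, 84.2 and 90.2 CPM at 8 h and 87.6, 80.4 and 74.2 CPM at 24 h (cysteine), and NARS1 stood at 332, 326 and 306 CPM at 0 h, 349, 319.9 and 307 CPM at 8 h and 312, 308 and 282 CPM at 24 h (asparagine); for both genes the groups overlapped. Log2 fold changes at 24 h were -0.20 ± 0.14, -0.19 ± 0.11 and -0.096 ± 0.099 (SE), and the smallest adjusted p of the 3 was 0.287 without the block and 0.107 with it. SARS1, MARS1, TARS1 and XPOT had negative values (-0.17, -0.14, -0.14 and -0.091), AARS1, EPRS1 and LARS1 positive ones (0.11, 0.054 and 0.061), and none of these passed in either fit.

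The members with the response element were set beside those without it. Of the 14 tested members with a match, 0 passed without the block at 24 h and 2 (CEBPG, lower, and SLC1A4, higher) with it, and their log2 fold changes lay between -0.30 and 0.40. Of the 19 with a window and no match, 4 passed without the block and 9 with it, between -2.03 and 1.10. Over all tested genes the shares were 4.25% without the block and 24.1% with it. STC2, GDF15, ATF5, ALDH18A1, DDIT4, DDIT3 and WARS1 are all in the second set. The absence of these letters from a window of 300 bases says nothing about a factor's binding elsewhere, and the difference between the sets was not tested.

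**Figure D3:**
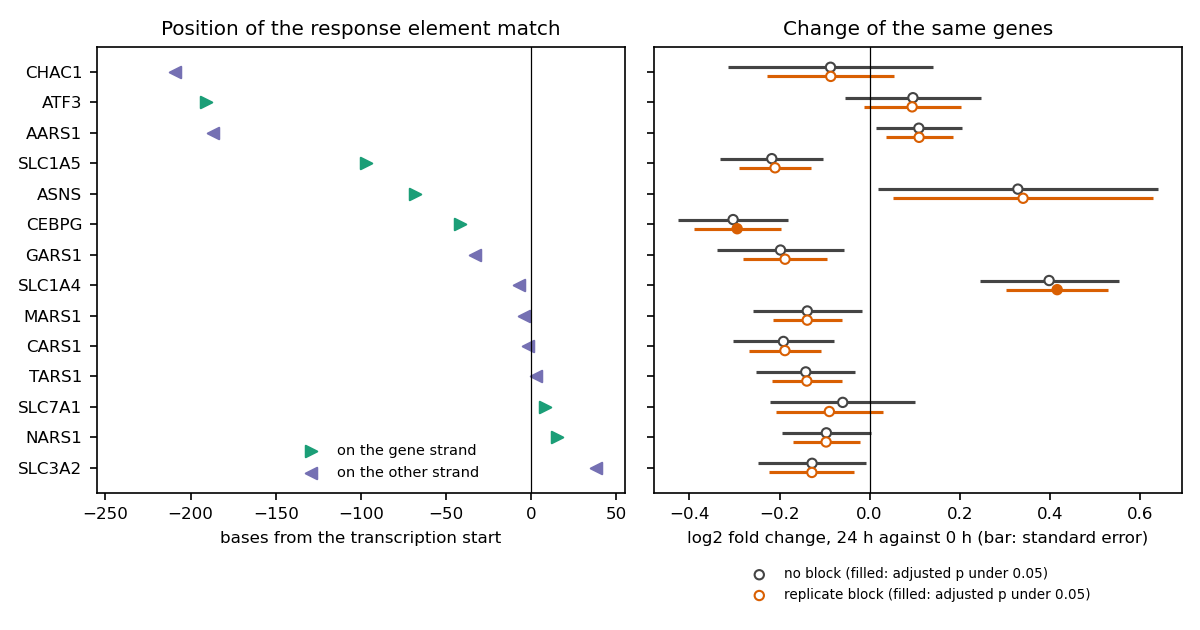
Left, position of the TGATGNAA match in bases from the transcription start (x axis) for 14 members, with triangles pointing right for the gene's strand and left for the other strand. Right, log2 fold change of the same genes at 24 h against 0 h with standard errors, without the block (grey) and with it (orange), filled where the adjusted p is under 0.05. Of the 14 matches 9 lie within 50 bases of the start, and the changes lie between -0.30 and 0.40.

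Without the block, the calls of 24 h against 0 h depended on single libraries. Leaving out replicate 2 or replicate 3 of 24 h left 0 genes called in the whole table, members included, with 2550 and 2563 genes at an unadjusted p under 0.05. STC2 passed in each of the other 7 fits without 1 library, and its adjusted p was 0.108 and 0.0979 in those 2. ATF5 passed in 4 of 9 fits and lost its call also without untreated replicate 1, 8 h replicate 2 or 8 h replicate 3 (adjusted p = 0.0606, 0.0584 and 0.0589). ALDH18A1 passed in 2 of 9, those without untreated replicate 2 and without 24 h replicate 1, and its adjusted p ranged from 0.0445 to 0.165. GDF15 passed in 1 of 9, without 8 h replicate 1, with adjusted p from 0.0262 to 0.173. Their directions held in all 9 fits. Against 8 h, 0 members were called without 24 h replicate 2, 24 h replicate 3 or 8 h replicate 1, where the adjusted p of STC2 was 0.0955, 0.0971 and 0.0755, and 9 were called without untreated replicate 1, beside 16.3% of all tested genes. With the block, STC2, ATF5, ALDH18A1, GDF15, DDIT3, DDIT4 and WARS1 passed in 9 of 9 fits. The largest adjusted p of each was 0.000645, 0.00756, 0.0305, 0.0185, 0.0212, 0.00128 and 0.032. Each of these fits called 2213 to 3816 genes of the 15489 to 15619 tested. With replicates 2 and 3 alone and the block, where 25.8% of all tested genes were called, these 7 members also passed, ATF4 too (log2 fold change -0.25, adjusted p = 0.0101). That setting was chosen after seeing the data. It rests on telling numbers 2 and 3 apart, which the correlations between 0 h and 24 h do not do, so it adds no separate evidence.

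The members also differed between replicate numbers, whatever the time. Replicate 1 was the highest library of its group in 23 of 38 members among untreated cells, 24 at 8 h and 29 at 24 h, that is in 60.5%, 63.2% and 76.3%, beside 43.4%, 38.7% and 38.6% of all tested genes. It was the highest at all 3 times in 18 members (47.4%), beside 18.2% of all tested genes. These 18 were ATF4, ATF3, ATF5 and DDIT3 of the 6 tested regulators, TRIB3, CHAC1, SESN2 and EIF4EBP1 of the 5 effectors, 7 of the 11 synthetase and export genes (GARS1, SARS1, MARS1, NARS1, LARS1, CARS1 and TARS1), and PSAT1, SLC1A5 and STC2. The median log2 ratio of replicate 1 to the mean of replicates 2 and 3 was 0.21 over the members in untreated cells, 0.15 at 8 h and 0.17 at 24 h, and -0.0029, -0.0040 and -0.0046 over all tested genes. DDIT4 and WARS1 were lowest in replicate 1 at all 3 times. With the untreated and 8 h replicates 1 both left out, 7 members were called at 24 h against 0 h, beside 5.77% of all genes tested in that fit (896 of 15540): STC2, ATF5, DDIT3, ALDH18A1, GDF15, DDIT4 and WARS1. What sets replicate 1 apart was not tested.

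**Figure D4:**
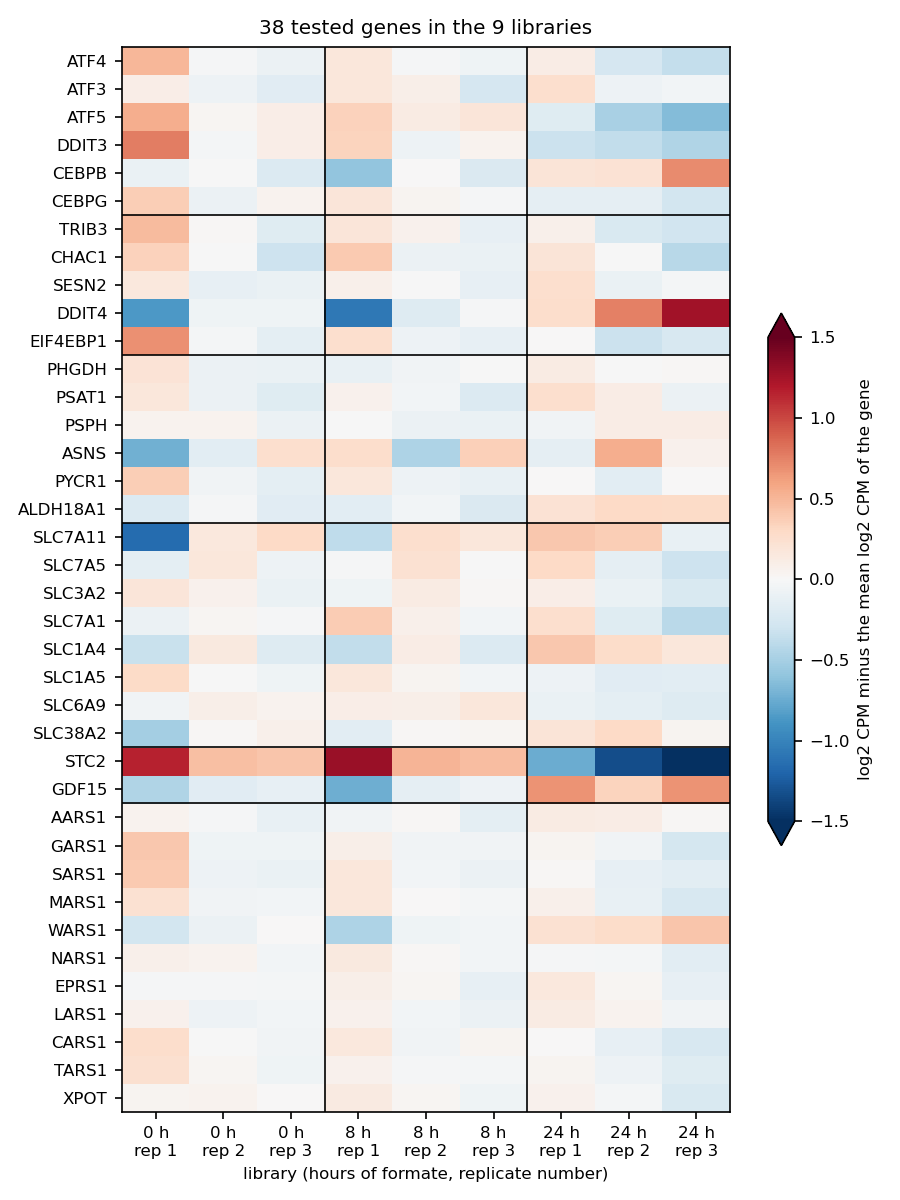
Log2 CPM of the 38 tested members (y axis) in the 9 libraries (x axis, hours of formate and replicate number), each minus the gene's mean over the 9; red is higher and blue lower, the scale ends at 1.5 in both directions, and lines separate role groups and times. STC2 turns from red to blue at 24 h and DDIT4 and GDF15 turn red there, and replicate 1 is redder than replicates 2 and 3 in most regulators and synthetases.

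Genes of the same pathway outside the list were examined as 4 lists, in which 0 of 59 tested genes passed without the block at 24 h, beside the 4.25% of all tested genes, and 14 with it (3 higher and 11 lower), beside 24.1%. Other cytosolic synthetases and their scaffold proteins had 4 of 13 lower with the block (KARS1, FARSA, FARSB and AIMP2): KARS1, the lysine enzyme, had a log2 difference of -0.38 ± 0.085 (SE, adjusted p = 0.00897) and FARSA, a subunit of the phenylalanine enzyme, one of -0.42 ± 0.089 (adjusted p = 0.00693). Among the mitochondrial synthetases, 1 of 17 was lower with the block and is not named here. IARS2, the isoleucine enzyme, did not pass (-0.21 ± 0.079 with the block, adjusted p = 0.0777). The eIF2 kinases, eIF2 and eIF2B subunits and phosphatase subunits had 4 of 16 lower with the block (PPP1R15A, EIF2B1, EIF2B3 and EIF2S2). PPP1R15A (GADD34), the stress-induced phosphatase subunit that reverses eIF2 phosphorylation and is itself an ATF4 target, went from 108, 87.1 and 78.3 CPM to 75.1, 56.8 and 47.5 CPM, which is a log2 difference of -0.61 ± 0.17 (SE, adjusted p = 0.0667; with the block -0.62 ± 0.081, adjusted p = 0.000547), and EIF2B1 changed by -0.36 ± 0.089 with the block (adjusted p = 0.0148). None of the 4 kinases, EIF2AK1, EIF2AK2, EIF2AK3 and EIF2AK4, passed in either fit. Of the 13 tested other ATF4 targets, 3 were higher with the block (VLDLR, CTH and ALDH1L2) and 2 lower (HERPUD1 and VEGFA). ALDH1L2, a mitochondrial folate enzyme that turns formyl-tetrahydrofolate into tetrahydrofolate and carbon dioxide, had 7.68, 12.8 and 12.7 CPM at 0 h and 17.5, 18.3 and 16.0 CPM at 24 h, and its log2 difference was 0.65 ± 0.15 with the block (adjusted p = 0.0116) and 0.64 ± 0.17 without it (adjusted p = 0.06). VLDLR, a lipoprotein receptor, rose by 0.52 ± 0.13 with the block (adjusted p = 0.0157) and did not pass without it (adjusted p = 0.07). SHMT2 and MTHFD2, the mitochondrial enzymes that lead from serine to formate, passed in neither fit (-0.24 ± 0.17 and -0.080 ± 0.16).

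Per kilobase of annotated exon, members covered a wide range of levels in untreated cells. SLC7A5 was the highest at 300.3 ± 34.4 CPM per kilobase (mean ± SD, n = 3), followed by ATF4 at 159 ± 36.6 and SLC3A2, the partner of SLC7A5, at 98.4 ± 9.55. EIF4EBP1 (79.7 ± 26.8), NARS1 (78.6 ± 3.37), SLC1A5 (69.3 ± 9.30), GARS1 (69.1 ± 13.7) and SLC38A2 (68.1 ± 14.1) came next and lay within their spread of one another. PSAT1 was at 44.6 ± 5.79 CPM per kilobase, ATF5 at 15.9 ± 3.27, STC2 at 9.61 ± 2.94 and GDF15 at 3.50 ± 0.412, and ASNS, at 0.329 ± 0.107, was above NUPR1 alone. The ASNS level is uncertain, since another annotated gene on the same strand overlaps 44.6% of its exon bases. After 24 h, STC2 was at 2.36 ± 1.11 CPM per kilobase and GDF15 at 6.16 ± 0.803.

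**Figure D5:**
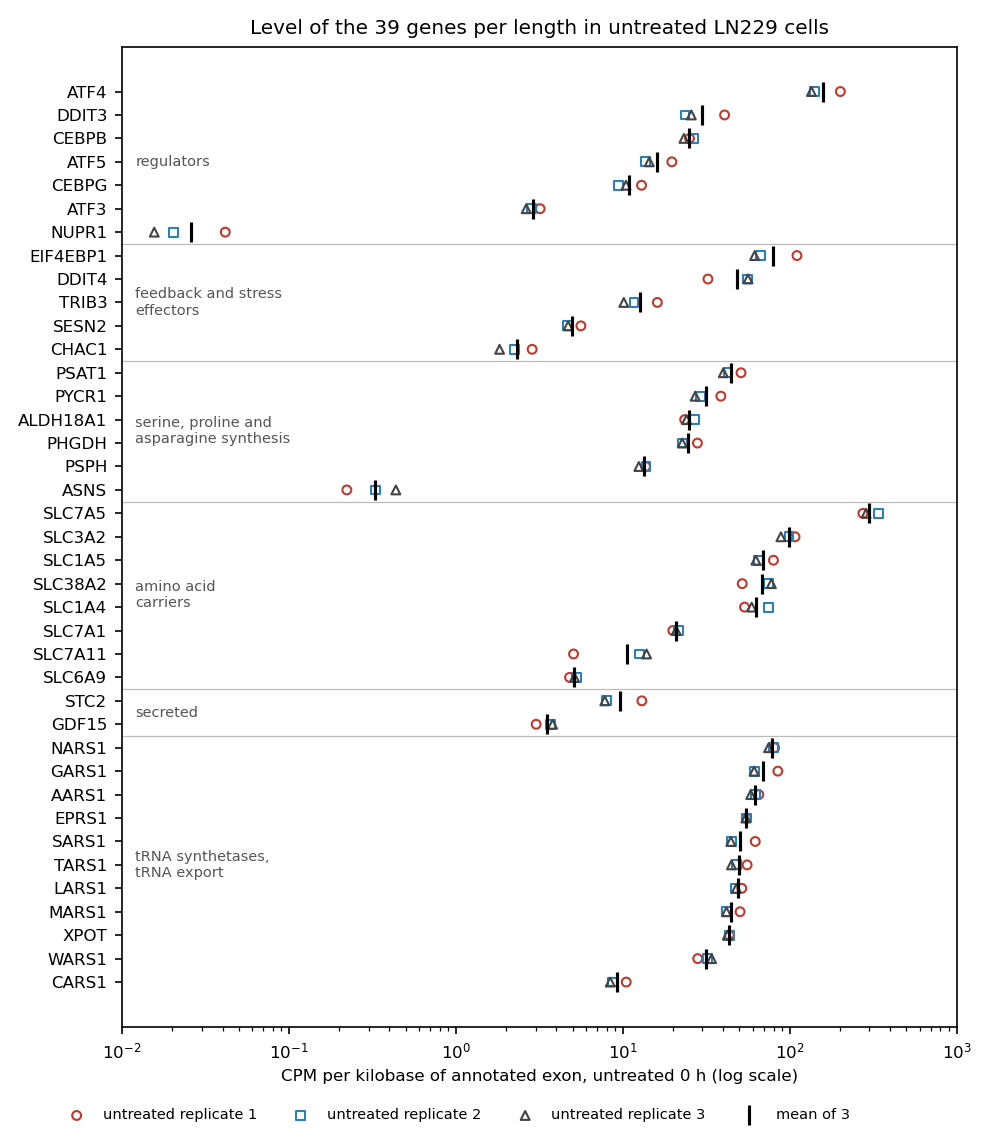
Level of the 39 members in untreated cells in CPM per kilobase of annotated exon (x axis, log scale), by role group; open symbols are replicates 1, 2 and 3 and the vertical mark their mean. SLC7A5 is the highest at 300.3 and NUPR1 the lowest, with ASNS at 0.329 far below the other synthesis genes. The ASNS count is uncertain because of an overlapping gene on the same strand.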

How the data were processed

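The authors deposited 1 table of raw counts per gene, whole numbers for the 9 libraries, and no column belonged to other samples. Per the submitters' processing notes, reads were handled with bcl2fastq 2.20.0.422 and STAR 2.7.4a on GRCh38. The counting program, its strand setting and the annotation release are not given in the sources used here. Per the labels' protocols, the library kit selects mRNA and keeps its strand. A source label spells the cell line differently from the growth protocol, whose spelling was used. Members were matched by Ensembl identifier. Coordinates and exon lengths came from the GENCODE annotation of GRCh38 in the reference, and promoter windows from RefSeq on GRCh38.p14.

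A low-count filter (filterByExpr) kept 15273 genes for testing, 38 members among them. The model, in edgeR 4.0.16 under R 4.3.3, had 1 mean per group over all 9 libraries, with TMM scaling, and each comparison used the quasi-likelihood test, two-sided, with Benjamini-Hochberg adjustment over all tested genes and a threshold of 0.05. Values per library are CPM on the scaled library sizes, and group values are mean ± SD. The standard error (SE) of a log2 fold change was derived from the test. It is the absolute log2 fold change divided by the square root of the F statistic. The replicate number as a block, DESeq2 1.42.0, upper-quartile scaling, other filters, fits of the 2 groups compared and leaving out each library were alternatives. The scripts were tested on simulated data.

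Pairing by replicate number was checked by correlating, over genes, how far same-numbered libraries lay from their group means. For numbers 1, 2 and 3 the correlation was 0.367, 0.164 and 0.251 from 0 h to 24 h, and 0.476, 0.432 and 0.414 from 0 h to 8 h. All were over 0.1, and the numbers were taken to pair these groups. From 8 h to 24 h the correlation was 0.423, 0.0367 and 0.404, and these groups were not taken as paired. Libraries of different numbers correlated at -0.44 to 0.27 between groups. The highest, 0 h replicate 3 with 24 h replicate 2, exceeded the same-numbered 0.164 and 0.251. Between 0 h and 24 h the correlations thus do not tell numbers 2 and 3 apart, and the blocked calls rest on that pairing. The block also gave each number 1 effect shared by all 9 libraries. The 8 h libraries therefore enter the blocked calls of 24 h against 0 h, though 8 h and 24 h were not taken as paired. A blocked fit of the 0 h and 24 h groups alone called 7 members in place of 12. The biological coefficient of variation was 0.137 without the block and 0.0956 with it.

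The choice of members and lists, and the rule on which genes to name, were made with earlier results of these data known. Values in every library are given for ATF4, for members called without the block, and, in each role group, for the 3 members with the smallest blocked p at 24 h against 0 h and the member with the highest level per kilobase in untreated cells. From the other lists, the 2 genes with the smallest blocked p are given with values. A gene that met this rule is not reported here, and no other took its place. Genes named besides these, such as CEBPB, SLC7A11 and SHMT2, were named after their values were seen or for their role.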

Additional observations from a re-analysis of the deposited data

How the results depend on the processing

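Values and counts refer to adjusted p under 0.05 by edgeR unless another tool is named. At 8 h against 0 h, 0 genes and 0 members were called under each alternative run. At 24 h against 0 h the replicate block gave 3687 genes and 12 members in place of 649 and 4, DESeq2 1656 and 7, a fit of the 2 groups alone 124 and 1, that fit with the block 1900 and 7, and replicates 2 and 3 with the block 3991 and 12. With replicate 1 of the untreated and the 8 h cells left out, 896 genes and 7 members were called. Leaving out 1 library at a time gave 0 to 899 genes and 0 to 5 members without the block, and 2213 to 3816 genes and 7 to 13 members with it. At 24 h against 8 h the numbers were not taken to pair the libraries. The replicate block there gave 3130 genes and 10 members in place of 696 and 4, and DESeq2 gave 1458 and 7. The 2 groups alone gave 1787 and 8, and with the block 4810 and 16. With both replicates 1 left out, 1062 and 7 were called, and replicates 2 and 3 with the block gave 4477 and 15. Leaving out 1 library gave 0 to 2545 genes and 0 to 9 members there, and with the block 1179 to 5432 and 5 to 18; the calls were 0 without 24 h replicate 2, 24 h replicate 3 or 8 h replicate 1. The 3 settings on replicate 1, on replicates 2 and 3 and on 2 groups with the block were chosen after seeing the data. Directions at 24 h against 0 h held under each alternative in 26 of the 38 tested members. The 12 that changed sign passed neither with nor without the block over the 9 libraries, and SLC7A5 among them was at 0.00018 with upper-quartile scaling and 0.0074 with the filter of 5 CPM. Without 1 library the ranges were ASNS -0.011 to 0.58 and SLC7A5 -0.26 to 0.11. Over all alternatives the log2 values of the other 10 were ATF3 -0.018 to 0.17, CHAC1 -0.23 to 0.091, EPRS1 -0.024 to 0.12, PHGDH -0.022 to 0.14, PSPH -0.0099 to 0.13, PYCR1 -0.22 to 0.049, SARS1 -0.25 to 0.0042, SESN2 -0.054 to 0.16, SLC7A1 -0.30 to 0.071 and SLC7A11 -0.097 to 0.78. The filter of 5 CPM gave ASNS no value. At 24 h against 8 h the ranges were ASNS -0.25 to 0.36 and SLC7A5 -0.34 to 0.022. At 8 h, where no member was called, signs changed between settings: the 2 groups with the block gave ALDH18A1 0.0011, leaving out both replicates 1 gave ASNS -0.054, ATF4 0.0094, ATF5 0.090, CARS1 0.025, GARS1 0.013, GDF15 0.042, NARS1 -0.012, PSAT1 0.017, SLC1A5 0.031, SLC38A2 -0.027 and TRIB3 0.054, and replicates 2 and 3 with the block gave ASNS -0.058, ATF4 0.0099, ATF5 0.090, CARS1 0.025, GARS1 0.013, GDF15 0.039, NARS1 -0.011, PSAT1 0.016, SLC1A5 0.031, SLC38A2 -0.028 and TRIB3 0.055. Without 1 library the log2 values at 8 h ranged over ALDH18A1 -0.057 to 0.052, ASNS -0.015 to 0.58, ATF4 -0.21 to 0.080, ATF5 -0.12 to 0.15, CARS1 -0.071 to 0.075, DDIT3 -0.36 to 0.071, DDIT4 -0.29 to 0.19, EIF4EBP1 -0.33 to 0.11, GARS1 -0.19 to 0.059, GDF15 -0.18 to 0.14, NARS1 -0.026 to 0.070, PSAT1 -0.085 to 0.078, SLC1A4 -0.17 to 0.12, SLC1A5 -0.074 to 0.089, SLC38A2 -0.089 to 0.22, SLC7A5 -0.040 to 0.18, STC2 -0.21 to 0.37, TRIB3 -0.20 to 0.13 and WARS1 -0.14 to 0.071. The cause of these changes was not tested. The block changed no call at 8 h, and at 24 h against 0 h it ended none.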
